A study of Drosophila melanogaster with 6 samples.

Results

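The genes described here encode the integrins and the core of the integrin adhesion complex of Drosophila melanogaster: mys, if, mew, scb, rhea, Fit1, Ilk, stck, parvin and Vinc. These 10 genes, out of 17494 in the deposited count table, were chosen by name for their known role. By symbol 9 of them were found, and scb (FBgn0003328), which carries no symbol in the deposited table, was taken through its 9 exons, all at the coordinates of the annotated gene. RNA was sequenced from wing disc-associated myoblasts, the precursors of the adult flight muscles, at 0 h after puparium formation (APF), to ask which transcripts depend on M1BP (Motif-1-binding protein), a factor bound at core promoters. M1BP RNAi animals carried Mef2-GAL4, UAS-GFP::Gma and the RNAi construct UAS-M1BP RNAi #1, and WT animals carried Mef2-GAL4 and UAS-GFP::Gma without the RNAi construct. Both genotypes were raised at 25 °C, both were staged to 0 h APF, and each of the 3 M1BP RNAi and 3 WT libraries came from 30 to 35 pooled wing discs from which GFP-positive myoblasts were sorted. The knockdown in these libraries rests on 1 RNAi construct, the weaker of those the study used. The driver is not limited to muscle: the study describes activity in some neurons and expression of Mef2 in the fat body. When M1BP RNAi was driven in neurons or in the fat body instead, the study saw no sarcomere or mitochondrial defect in flight muscle.

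Integrins are heterodimers of an alpha and a beta subunit that bind the extracellular matrix outside the cell and are linked inside it to the actin cytoskeleton. Talin joins the beta subunit to actin, kindlin assists its activation, the complex of integrin-linked kinase, PINCH and parvin stabilises the link, and vinculin reinforces it under load. In Drosophila muscle these proteins hold the fibres to tendon cells at the attachment sites, and in the larval wing disc the myoblasts lie on the notum epithelium with matrix between them.

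The libraries held between 43086545 and 46462396 counted reads in M1BP RNAi and between 43279285 and 51855156 in WT. M1BP itself had 19.5, 25.9 and 24.1 RPKM in M1BP RNAi, against 74.8, 80.0 and 73.4 RPKM in WT. On the log2 scale M1BP changed by -1.71 (SE 0.10), with edgeR's quasi-likelihood test giving an adjusted p of 1.45e-05. RPKM here is the count divided by the exonic length in kilobases and by the scaled library size. Myoblast markers (twi, Him, htl, Mef2, zfh1, stumps and ct) summed to 9951 to 10670 CPM (counts scaled to the library total) in M1BP RNAi and 9985 to 11340 in WT, with 0 of 7 past an adjusted p of 0.05 in edgeR. Summed markers of haemocytes, fat body, trachea, tendon and neurons stayed at or under 52.02 CPM in every library, with eater at 0 counts throughout. The haemocyte sum, mostly Pxn, did not overlap between the genotypes, at 18.7 to 23.8 CPM in M1BP RNAi and 25.4 to 37.0 in WT. The wing epithelium list summed to 1608 to 1717 CPM in M1BP RNAi and 1567 to 1828 in WT, nearly all from rn, ap and shg. Of the rest, salm had 8.18 to 15.8 CPM over the libraries (log2 fold change 0.55, edgeR adjusted p = 0.0508). The level of grh did not exceed 5.85 CPM, and those of nub, wg, Dll, dpp and pdm2 did not exceed 3.65 CPM. The list for differentiated muscle did not overlap between the genotypes, at 898 to 993 CPM in M1BP RNAi and 682 to 755 in WT. It consisted mainly of Act87E, one of several near-identical actin genes, and sls, with Mhc at or under 4.90 CPM and Tm2, TpnC41C and wupA at or under 0.306. Of its 8 genes 5 could be tested. Of these, 2 passed an adjusted p of 0.05 in edgeR, as 4.09% of all tested genes did. They were Act87E (log2 fold change 0.62) and the scarce Mlc2 (-1.52). The part of the muscle and haemocyte lists in the values that follow was not tested. As these are bulk libraries, fewer cells of a type and less RNA per cell cannot be told apart.

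All 10 adhesion genes were transcribed well above the detection limit in every myoblast library, with between 1584 and 29364 counts each. The beta subunit mys had the highest level per length, at 123 ± 3.45 RPKM in M1BP RNAi and 126 ± 1.73 RPKM in WT (SD, n = 3 each), higher than 94.3% of the 10306 genes tested. It was followed over all 6 libraries by scb (mean 102 RPKM), stck (67.1), Vinc (49.2), rhea (45.8), Fit1 (35.3), parvin (35.3), mew (31.2), Ilk (22.0) and if (7.09). The range of Vinc over libraries overlapped that of rhea, and the ranges of Fit1, parvin and mew overlapped in turn, so their ranges did not separate these neighbours. Compared within the same library, parvin stood above mew in every library, while the order of Vinc and rhea and that of Fit1 and parvin varied. The ranges of the other neighbours in the order did not touch, and if, the lowest, stood above 39.2% of the tested genes.

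**Figure D1:**
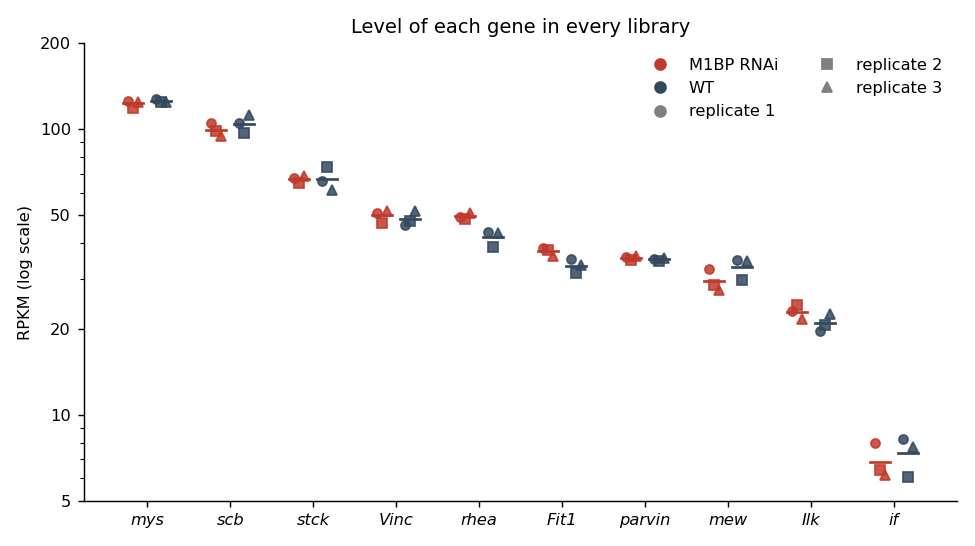
Level of the 10 integrin adhesion genes in each library, in RPKM on a log axis, with genes ordered by their mean. Points are libraries (M1BP RNAi in red on the left of each pair, WT in dark blue), marker shapes give the replicate and short lines the group mean; only for rhea and Fit1 do all 3 M1BP RNAi libraries lie above all 3 WT libraries.

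Over the 10 genes, 0 passed an adjusted p of 0.05 in edgeR, where 4.09% of all tested genes did, and 0 passed the study's threshold of an adjusted p of at most 0.001 with at least 1.5-fold, where 0.475% did (0 in DESeq2 as well, where 1.70% of all genes did). At an unadjusted p under 0.05 there were 2, rhea and Fit1, both higher in M1BP RNAi, beside 20.2% of all tested genes. DESeq2 placed 1 of the 10, rhea, under an adjusted p of 0.05, as it did 8.60% of all tested genes. The libraries did not overlap between the genotypes for the same 2 genes, while 13.8% of tested genes had no overlap with M1BP RNAi higher and 12.3% with M1BP RNAi lower. With 5 genes on either side of 0 (mys and parvin change side when library differences tied to gene length are removed), the median log2 fold change was 0.0085, next to 0.0070 over all tested genes. The 95% interval of each of the 10 fold changes stayed inside 1.5-fold in either direction, the lowest bound being 0.767-fold for if and the highest 1.30-fold for rhea. The M1BP transcript in the same libraries averaged 30.5% of its WT level.

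**Figure D2:**
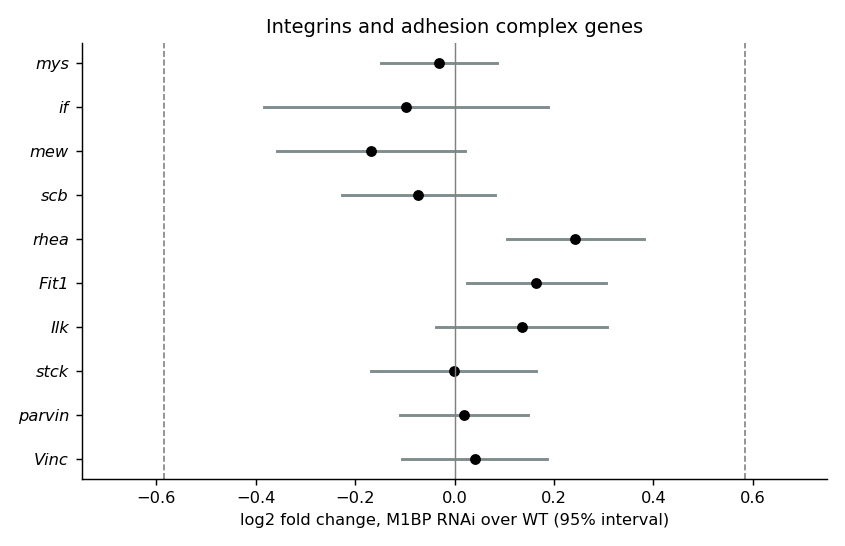
Log2 fold change of each of the 10 genes, M1BP RNAi over WT, from edgeR. Points are estimates, bars are 95% intervals and dashed lines mark 1.5-fold in either direction; every bar ends inside them, from -0.38 for if to 0.38 for rhea.

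The beta subunit, encoded by mys (FBgn0004657, dm6 X, 8061645 to 8070237, plus strand, 10 exons), is the partner of all the alpha subunits described here. Its level was 126, 119 and 125 RPKM in M1BP RNAi, against 128, 125 and 125 RPKM in WT. The genotypes overlapped, and all libraries lay between 94.75% and 101.6% of the WT average. The difference on the log2 scale was -0.031 (SE 0.052; edgeR, adjusted p = 0.784), with a 95% interval of 0.903-fold to 1.06-fold. Across the 10305 other tested genes, the 5 whose log2 values followed mys most closely over the 6 libraries were Clic, fdl, Srp54k, deltaCOP and Ankle2, with a root mean square difference of 0.017 to 0.019. Of the other adhesion genes, parvin came nearest, at rank 37, and if stood at rank 5784.

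The alpha subunits differed widely in level among themselves and little between the genotypes. scb (2R, 15248784 to 15258498, plus strand) encodes alphaPS3 and was the main alpha transcript. It had 105, 98.5 and 94.8 RPKM in M1BP RNAi, against 105, 97.0 and 112 RPKM in WT, and the genotypes overlapped (log2 difference -0.073, SE 0.069; edgeR, adjusted p = 0.590). Set against the summed level of scb, mew, if, ItgaPS4 and ItgaPS5, scb made up 70.8 ± 0.87% in M1BP RNAi and 70.7 ± 1.34% in WT (SD, n = 3 each).

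mew (FBgn0004456, X, 13214409 to 13258490, minus strand) encodes alphaPS1, a laminin-binding subunit. Its level was 32.4, 28.5 and 27.3 RPKM in M1BP RNAi, against 34.9, 29.7 and 34.5 RPKM in WT. The highest M1BP RNAi library lay above the lowest WT library, and edgeR gave the difference of -0.17 (log2, SE 0.085) an adjusted p of 0.304. As a share of the summed alpha level, mew gave 20.9 ± 0.56% in M1BP RNAi and 22.3 ± 0.62% in WT without overlap, at the smallest p that an exact permutation test of 3 against 3 can give (p = 0.1 two-sided, 0.325 adjusted over the 13 ratios compared). if (FBgn0001250, X, 16752189 to 16783434, minus strand), which encodes alphaPS2, the subunit that binds ligands with an RGD motif, was the scarcest of the 10. It had 7.96, 6.42 and 6.17 RPKM in M1BP RNAi, against 8.20, 6.05 and 7.72 RPKM in WT. Its libraries overlapped and varied most within a genotype, with a coefficient of variation of 14.2% in M1BP RNAi and 15.4% in WT, where counting error at its lowest count gives 2.51%. The estimate of -0.097 (log2, SE 0.13; edgeR, adjusted p = 0.712) had the widest interval of the 10, 0.767-fold to 1.14-fold.

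ItgaPS4 and ItgaPS5, which encode further alpha subunits, were low and belong to the wider list of adhesion genes below. ItgaPS4 (FBgn0034005, 2R, 15258761 to 15262873) starts 262 bases after scb ends, on the same strand. Its level was 4.50, 4.81 and 3.50 RPKM in M1BP RNAi, against 3.04, 1.59 and 2.99 RPKM in WT, with no overlap. The difference of 0.75 (log2, SE 0.23) missed an adjusted p of 0.05 in edgeR, at 0.103, and passed it in DESeq2, at 0.0189. Without WT replicate 2, the lowest library, it was 0.50 (edgeR, adjusted p = 0.0725). ItgaPS4 made up 3.04 ± 0.42% of the alpha level in M1BP RNAi and 1.69 ± 0.45% in WT (exact permutation p = 0.1, 0.325 adjusted). Exons of ItgaPS4 share 66 bases with Trpm on the opposite strand. ItgaPS5 had 0.281 to 0.791 RPKM in M1BP RNAi and 0.505 to 0.740 RPKM in WT. Itgbn, the gene of a second kind of beta subunit, had 0 counts in all M1BP RNAi libraries and 0 to 1 in WT, at or under the limit of 3 counts, and was not tested.

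Talin and kindlin bind the tail of the beta subunit directly. Of the 10 genes, rhea and Fit1 were the 2 with no overlap between the genotypes, both higher in M1BP RNAi. Over all tested genes 13.8% had no overlap and were higher, and 12.3% had no overlap and were lower. rhea (FBgn0260442, 3L, 8545001 to 8574409, plus strand, 24 exons) encodes talin. Its level was 49.5, 48.4 and 51.0 RPKM in M1BP RNAi, against 43.5, 38.9 and 43.4 RPKM in WT. Each M1BP RNAi library lay above each WT library, and the WT libraries were spread more widely, with replicate 2 the lowest. The mean was 49.6 ± 1.30 RPKM in M1BP RNAi and 41.9 ± 2.65 RPKM in WT (SD, n = 3 each), a difference of 0.24 (log2, SE 0.062) or 1.18-fold, with a 95% interval of 1.08-fold to 1.30-fold. The adjusted p in edgeR was 0.0607 and missed 0.05. It passed in DESeq2 (0.00866), without a filter on low counts (0.0483) and with an offset for exonic length (0.00475), and lay between 0.0626 and 0.218 when 1 library was left out.

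Fit1 (FBgn0035498, 3L, 4103564 to 4107116, plus strand) encodes one of the fly's kindlins. It had 38.4, 37.6 and 36.0 RPKM in M1BP RNAi, against 35.2, 31.3 and 33.4 RPKM in WT. The lowest M1BP RNAi library stood just above the highest WT library. The difference of 0.16 (log2, SE 0.063) reached an adjusted p of 0.180 in edgeR, and no alternative brought it under 0.0848. Fit2, the other kindlin gene, named here after its values were seen, had 17.9, 16.0 and 16.5 RPKM in M1BP RNAi, against 15.0, 15.1 and 14.3 RPKM in WT, which differ by 0.19 (log2, SE 0.069; edgeR, adjusted p = 0.171). Its level was 45.1 ± 2.19% of that of Fit1 in M1BP RNAi and 44.5 ± 3.16% in WT (SD, n = 3 each).

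Relative to mys within the same library, the talin transcript stood at 39.4, 40.6 and 40.9% in M1BP RNAi and at 34.1, 31.2 and 34.7% in WT. The Fit1 transcript stood at 30.6, 31.6 and 28.9% of mys in M1BP RNAi and at 27.6, 25.1 and 26.7% in WT. Both ratios were without overlap, and each reached an exact permutation p of 0.1, the smallest this design allows (0.325 adjusted over 13 ratios). The summed alpha level over mys overlapped, at 114 ± 7.03% in M1BP RNAi and 118 ± 9.08% in WT.

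**Figure D3:**
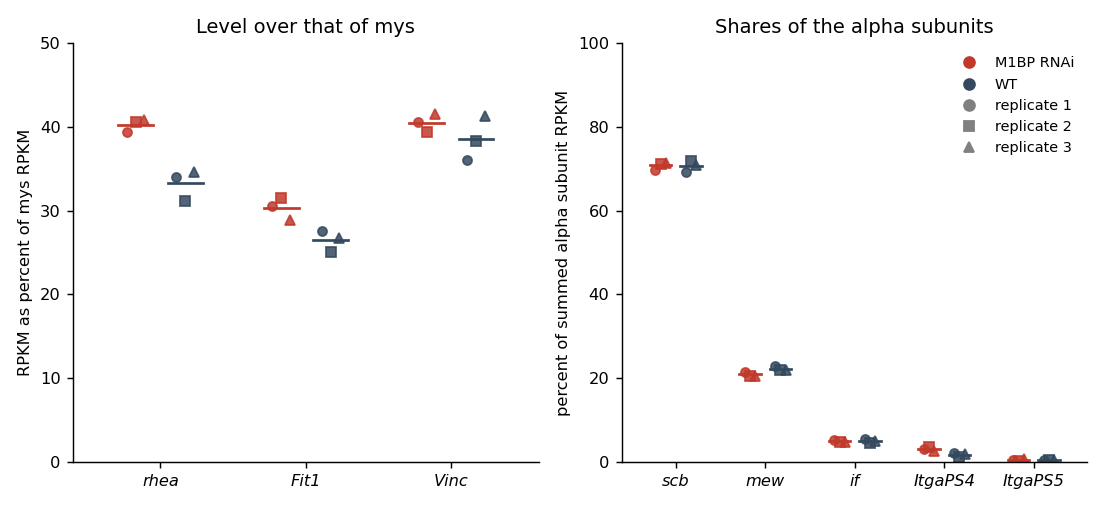
Left, RPKM of rhea, Fit1 and Vinc as percent of that of mys in the same library; right, each alpha subunit as percent of the summed alpha RPKM. Points are libraries (M1BP RNAi in red on the left, WT in dark blue) and lines are group means; rhea and Fit1 over mys, and the shares of mew and ItgaPS4, do not overlap, while the share of scb is 70.8% in M1BP RNAi and 70.7% in WT.

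The complex of integrin-linked kinase, PINCH and parvin showed no difference beyond the spread of its libraries. Ilk (FBgn0028427, 3L, 21216901 to 21219240, plus strand), encoding the integrin-linked kinase, had 23.1, 24.3 and 21.6 RPKM in M1BP RNAi, against 19.7, 20.6 and 22.6 RPKM in WT. The genotypes overlapped, and the estimate was 0.13 (log2, SE 0.077; edgeR, adjusted p = 0.362). stck (FBgn0020249, 3R, 8356978 to 8359964, plus strand) encodes PINCH, the partner of the kinase. It had 67.7, 64.8 and 68.6 RPKM in M1BP RNAi, against 66.0, 73.9 and 61.5 RPKM in WT. The M1BP RNAi libraries lay inside the range of the WT libraries, and the estimate of -0.0019 (log2, SE 0.074; edgeR, adjusted p = 0.992) had an interval of 0.890-fold to 1.12-fold.

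parvin (FBgn0052528, X, 19746041 to 19748458, plus strand), the third component, had 35.8, 34.8 and 35.9 RPKM in M1BP RNAi, against 35.1, 34.7 and 35.3 RPKM in WT. No other gene of the 10 was as even, with a coefficient of variation of 1.67% in M1BP RNAi and 0.973% in WT, both under the 1.90% that counting error gives at its lowest count. Between the genotypes it differed by 0.019 (log2, SE 0.058; edgeR, adjusted p = 0.888). Of its exonic bases 14.6% lie under asRNA:CR45501 on the opposite strand, which had 308 to 353 counts in M1BP RNAi and 345 to 403 in WT, and a further 145 bases are shared with Alr on the same strand. Use of strand in the counting is not given in the sources used here, so reads from shared bases cannot be told apart. By RPKM stck made up 53.4 ± 1.06% of the summed level of the complex in M1BP RNAi and 54.5 ± 2.88% in WT, and the shares of parvin and Ilk overlapped between the genotypes as well.

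Vinc (FBgn0004397, X, 2214347 to 2222567, minus strand) encodes vinculin, which binds talin and actin. Its level was 51.0, 47.0 and 51.8 RPKM in M1BP RNAi, against 46.2, 47.8 and 51.6 RPKM in WT. The ranges almost coincided, and edgeR gave the estimate of 0.041 (log2, SE 0.065) an adjusted p of 0.769. Besides parvin, exons of mew, rhea and stck also touch another gene, by 107, 3 and 7 bases, so that 4 of the 10 share exonic bases. By position 5 of the 10 genes lie on X, 3 on 3L, 1 on 3R and 1 on 2R, and their exonic lengths run between 1583 and 11083 bases.

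The libraries also differed among themselves by the length of the gene. Among 176 well expressed genes with 10 kb of exon and over, the class of rhea, the median log2 deviation from the mean of the 6 libraries was 0.028, -0.052 and -0.031 in M1BP RNAi, against 0.11, -0.16 and 0.11 in WT. Among 1427 genes under 1.5 kb it was 0.0024, 0.080 and 0.077 in M1BP RNAi, against -0.056, 0.054 and -0.14 in WT. The trend also ran between the genotypes, with short genes leaning higher and long genes lower in M1BP RNAi. Median log2 fold changes, M1BP RNAi over WT, were 0.099 under 1.5 kb, -0.063 at 5 to 10 kb and -0.041 at 10 kb and over. WT replicate 2 stood apart from WT replicates 1 and 3, as it did for the longer members if, mew, scb and rhea, where it was the lowest WT library. The short members were mixed: WT replicate 2 was the highest WT library for stck, the lowest for parvin and the middle one for Ilk. In their class, 1.5 to 2.5 kb, the WT medians were -0.029, 0.027 and -0.050. With an offset that removes the trend with length, chosen after the trend was seen, the log2 fold change of rhea was 0.30 (SE 0.046), that of mew -0.11 and that of if -0.036. Without WT replicate 2 that of rhea was 0.19 (adjusted p = 0.0626), that of mew -0.24 (0.0921) and that of if -0.22 (0.247) in edgeR.

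**Figure D4:**
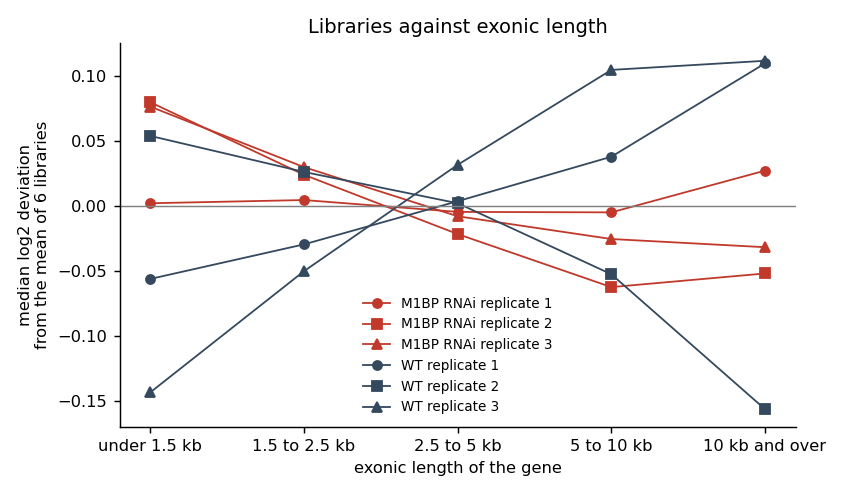
Median log2 deviation of each library from the mean of the 6 libraries, for well expressed genes in 5 classes of exonic length. M1BP RNAi libraries are red and WT libraries dark blue; WT replicate 2 falls to -0.16 for genes of 10 kb and over, where WT replicates 1 and 3 stand at 0.11.

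Around the core complex, 36 other genes of integrin adhesion were listed in 4 groups, of which 35 could be tested. An adjusted p of 0.05 was passed in edgeR by 3 of them, all higher in M1BP RNAi (CAP, Rap1 and Ndg), and by 0 that were lower, beside the 4.09% of all tested genes. With an unadjusted p under 0.05 there were 7 higher and 7 lower of the 35, where 10.1% of all tested genes were higher and 10.1% lower. The median log2 fold change of the 35 was -0.020, next to 0.0070 over all tested genes, and 0 passed the study's threshold.

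Among 16 adaptors and signalling genes, edgeR placed 2 under an adjusted p of 0.05, both higher, beside 4.09% of all tested genes. By sign, 10 of the 16 estimates were higher and 6 lower, with a median of 0.021. CAP (FBgn0033504, 2R, 10269016 to 10307024, plus strand), an adaptor that binds vinculin at muscle attachment sites, had 4.24, 3.39 and 3.32 RPKM in M1BP RNAi, against 2.65, 2.65 and 2.70 RPKM in WT. The WT libraries were nearly equal, M1BP RNAi replicate 1 was the highest, and the rise was 0.45 (log2, SE 0.094; edgeR, adjusted p = 0.0286). Leaving out WT replicate 1, WT replicate 3 or M1BP RNAi replicate 2 ended the call of CAP, with adjusted p of 0.126, 0.0836 and 0.0653 in edgeR. Rap1 (FBgn0004636, 3L, 1859115 to 1862239, minus strand), a small GTPase that acts with talin in integrin activation, had 58.1, 60.3 and 59.7 RPKM in M1BP RNAi, against 49.5, 51.2 and 48.2 RPKM in WT. The groups were well apart, and the rise was 0.26 (log2, SE 0.054; edgeR, adjusted p = 0.0293). That call was lost without WT replicate 1 (adjusted p = 0.119), WT replicate 3 (0.0791), or any of the M1BP RNAi replicates 1 (0.0706), 2 (0.149) and 3 (0.117) in edgeR.

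Fak, the gene of focal adhesion kinase, had 17.9, 18.3 and 17.6 RPKM in M1BP RNAi, against 20.5, 20.6 and 22.1 RPKM in WT. The genotypes did not overlap, and the difference of -0.23 (log2, SE 0.058) had an adjusted p of 0.0585 by edgeR and 0.00540 by DESeq2. Src42A, a Src family kinase with the highest RPKM of this group averaged over the 6 libraries (Rap1 was higher in M1BP RNAi alone), had 56.2 to 59.1 RPKM in M1BP RNAi and 54.9 to 60.2 RPKM in WT (adjusted p = 0.936, edgeR).

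Among 10 matrix ligands, edgeR placed 1 under an adjusted p of 0.05, higher in M1BP RNAi, beside 4.09% of all tested genes. By sign, 4 of the 10 estimates were higher and 6 lower. Ndg (FBgn0026403, 2R, 10313891 to 10322104, plus strand) encodes nidogen, a basement membrane protein that binds laminin. It lies 6866 bases beyond CAP, with 3 other genes reaching into the interval. It had 26.1, 24.0 and 21.6 RPKM in M1BP RNAi, against 14.4, 17.0 and 16.4 RPKM in WT. All M1BP RNAi libraries lay well above the WT libraries, by 0.58 on the log2 scale (SE 0.088; edgeR, adjusted p = 0.00562), and the adjusted p stayed between 0.0066 and 0.0358 when 1 library was left out. In DESeq2 the adjusted p of Ndg was 1.12e-07 and its log2 fold change 0.578. Ndg thus missed the study's threshold in DESeq2 by its fold alone, as 1.5-fold is 0.585 on the log2 scale. Exons of Ndg share 158 bases with CG34222 on the opposite strand. LanB2, the gamma chain of laminin, was the most abundant of these transcripts per length, with 198 to 208 RPKM in M1BP RNAi and 202 to 222 RPKM in WT (adjusted p = 0.667, edgeR). LanB1, the laminin beta chain, had 169, 160 and 171 RPKM in M1BP RNAi, against 189, 175 and 201 RPKM in WT. Its libraries did not overlap, yet edgeR gave the difference of -0.18 (log2, SE 0.064) an adjusted p of 0.161, and 0.0392 without WT replicate 2. With the offset for exonic length the difference of LanB1 was -0.12 (edgeR, adjusted p = 0.135).

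Of 7 other matrix receptors and attachment proteins, edgeR placed 0 under an adjusted p of 0.05 and 2, both lower, under an unadjusted p of 0.05, beside the 10.1% of all tested genes that were lower at that p. Over all 35 genes DESeq2 made 5 calls at an adjusted p of 0.05, which 8.60% of all genes passed in DESeq2. Grip, an adaptor of muscle guidance to attachment sites, was the most abundant, at 178 to 191 RPKM in M1BP RNAi and 163 to 183 RPKM in WT (adjusted p = 0.363, edgeR). Dys, the gene of dystrophin, had 27.8, 29.2 and 28.0 RPKM in M1BP RNAi, against 35.5, 28.5 and 36.3 RPKM in WT. WT replicate 2 fell among the M1BP RNAi libraries, and the edgeR estimate of -0.24 (log2, SE 0.087, adjusted p = 0.166) became -0.35 (adjusted p = 0.0071) without it. Dys has 21204 bases of exon, and with the offset for exonic length its estimate was -0.18 (edgeR, adjusted p = 0.0672).

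**Figure D5:**
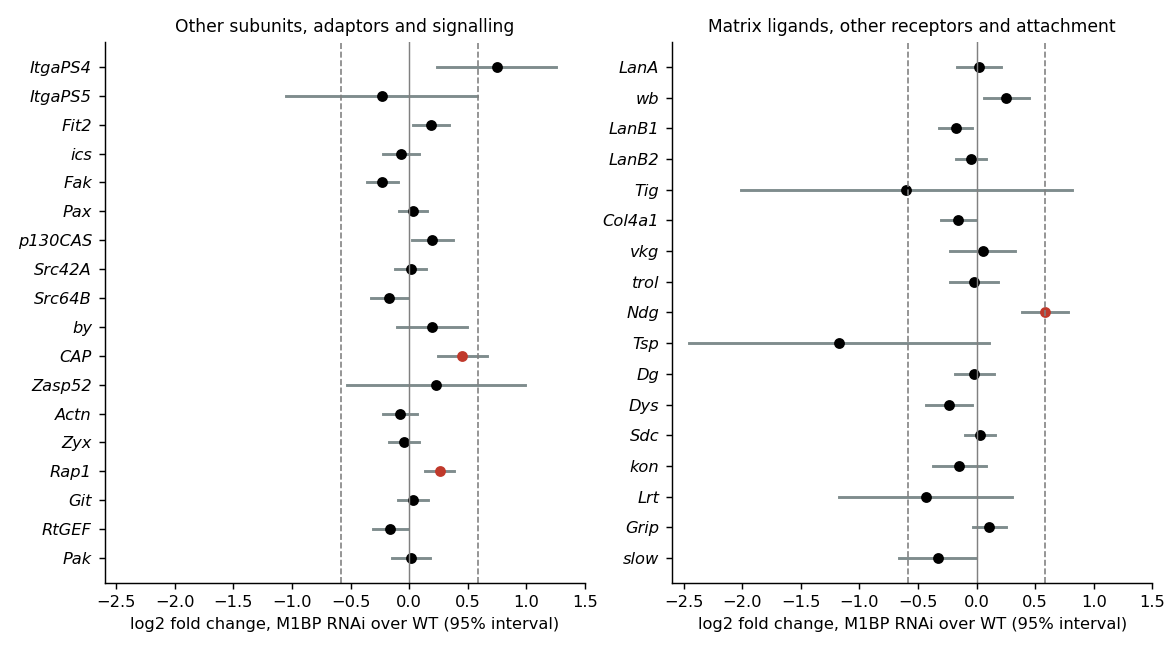
Log2 fold change, M1BP RNAi over WT, of the 35 tested other genes of integrin adhesion. Points are estimates from edgeR (red at an adjusted p of at most 0.05) and bars are 95% intervals; dashed lines mark 1.5-fold, and the red points are CAP at 0.45, Rap1 at 0.26 and Ndg at 0.58.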

How the data were processed

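The 6 libraries were made from polyA RNA of sorted myoblasts by full-length cDNA amplification and Tn5 fragmentation, without molecular identifiers, so intervals that rest on counting cover counting error only. The study's methods describe triplicate RNA preparations. The authors deposited raw counts per gene, summed over exons in dm6. Their processing notes name bcl2fastq 2.17.1.14, Subread 2.0.3, featureCounts and DESeq2, and the use of strand is not given in the sources used here. A second deposited table holds the authors' DESeq2 comparison. In it the authors deposited a signal, the mean over libraries of counts scaled by size factors, with a log2 fold change, its standard error, a p-value and an adjusted p-value, and only its pairs of identifier and symbol were used. There were 0 count columns without a sample.

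Counts were tested with edgeR 4.0.16 (R 4.3.3, limma 3.58.1): filterByExpr with a minimum of 10 counts, which kept 10306 genes with 99.98% of counts, TMM factors, and the quasi-likelihood functions glmQLFit and glmQLFTest with genotype alone in the model. All tested genes entered the Benjamini-Hochberg adjustment. Standard errors came from the estimate and its F value. RPKM used the effective library size and the exonic length in the count table, and the test was applied to counts only. Log2 values for likeness to mys had a prior count of 2. Differences of ratios were tested two-sided by exact permutation over samples. Alternatives were other size factors, library totals alone, DESeq2 1.42.0, other filters, a robust spread, a replicate block, leaving out each library, genes without exon overlap, and an offset for exonic length added after the data were seen. The fit was tested on simulated data. Well expressed genes in the length classes had a mean log2 CPM above 4.

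The 10 genes and the lists were chosen with earlier results of these data known. Genes named were M1BP, the 10, and of each list those with an adjusted p of at most 0.05, that with the smallest p in each direction and that with the highest RPKM, plus the 5 most like mys. Fit2, Itgbn and genes with overlapping exons were added afterwards, and of the ratios those stated. Promoter sequences were not used here.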

Additional observations from a re-analysis of the deposited data

How the results depend on the processing

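The 14 alternatives that give fold changes left each of the 10 genes inside 1.5-fold, and in each of all 15 alternatives 0 of the 10 and 0 of the 35 other genes reached the study's threshold. The count of the 10 at an adjusted p of 0.05 was 1 (rhea) in DESeq2, without a filter and with the length offset, against 0. The count of the other genes, 3, became 5 in DESeq2 and 1 among genes without exon overlap, a smaller list by construction. It lay between 1 and 7 when 1 library was left out, at 1 without WT replicate 1 or M1BP RNAi replicate 2 and 7 without WT replicate 2. Several values near 0 changed sign. With the length offset mys moved to 0.015, parvin to -0.023 and LanB2 to 0.010 on the log2 scale.
With 1 library left out, stck lay between -0.069 and 0.067, ItgaPS5 between -0.67 and 0.057, and Src42A between -0.020 and 0.046.

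The study's methods do not say whether libraries of the same number were prepared together. Deviations of same-numbered libraries correlated at 0.031, -0.046 and -0.16, and those of differently numbered libraries at -0.085 to 0.12. With 3 libraries a genotype these values cannot tell whether a preparation was shared. A fit with the number as a replicate block gave 0 calls among the 10 genes and 2 among the others, with Rap1 at an adjusted p of 0.0516 in edgeR, and stck at 0.0018 on the log2 scale. At 3 libraries a genotype, the 95% intervals of the 10 genes were 0.23 to 0.57 log2 units wide, which limits what could be resolved.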
